A study of Mus musculus with 5 samples.

Results

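The genes described here are the mouse collagen genes, taken as every gene whose symbol reads Col, a number, the letter a and a number. Of the 35478 genes listed, 44 matched, and 35 of them passed the filter on low counts among 16394 genes tested. By the structure of the protein they were sorted into 11 fibrillar, 6 basement membrane, 9 FACIT (collagens that attach to fibrils and whose helix is interrupted), 6 beaded filament, 4 transmembrane, 3 network and 2 multiplexin genes. Col7a1, which forms anchoring fibrils, and the unclassified Col26a1 and Col28a1 made up the rest.

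Collagens are extracellular matrix proteins built of 3 chains wound into a helix, which requires glycine at every 3rd residue. Fibrillar collagens such as types I and III form the fibers of the interstitium and of scars. Type IV collagens form the sheet under epithelia and endothelia, and in the mature glomerular filter the chains of Col4a1 and Col4a2 give way to those of Col4a3, Col4a4 and Col4a5. FACIT, beaded filament and multiplexin collagens link fibrils and basement membranes to their surroundings, and transmembrane collagens sit in the cell membrane.

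RNA-seq was performed on kidneys of male C57BL/6J;129 mice that entered the study at 7–8 weeks of age, 1 library per mouse. The methods give this strain, whereas the sample labels give C57BL/6J. Both groups carried floxed Prdm16 alleles and had unilateral ischemia-reperfusion injury (UIRI): the vessels of the left kidney were clamped for 35 minutes at 38.5°C, the right kidney was taken out on day 10 and tissue was collected 24 hours later, on day 11. The Prdm16fl/fl group, called control mice, held mice 1 and 3. The Ksp-Cre/Prdm16fl/fl group, called Ksp-Cre mice, held mice 1, 2 and 3 and also carried Ksp-Cre, which drives recombination in tubular epithelium, so the fibroblasts, endothelium and podocytes that express many collagens were not its target. The libraries are of kidney tissue, described in the methods as cortex, in which fewer cells of a type and less RNA per cell cannot be told apart, and no library of an uninjured kidney was analysed here.

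Total counts were 14939040 to 16425161 per library. Prdm16 itself was at 25.3 and 20.02 CPM (counts relative to the library total, scaled with edgeR's TMM factors) in control mice 1 and 3. It was at 17.1, 17.0 and 18.0 CPM in Ksp-Cre mice 1, 2 and 3 (adjusted p = 0.259 in edgeR's quasi-likelihood test). This count covers the whole gene, of which exon 9 was floxed, in tissue that also holds cells outside the target of Ksp-Cre. It therefore cannot measure how complete the deletion was. Ksp-Cre mouse 3 stood apart from its group. The correlation of log2 CPM over the tested genes was 0.991 between Ksp-Cre mice 1 and 2 and 0.957 and 0.960 between each of them and mouse 3. Values are therefore mostly given for single mice, and without mouse 3 for each collagen gene whose call differed. Mouse 3 was singled out from these same data. Leaving out the mouse farthest from its group narrows the spread on which p-values rest, so p-values without it are given as description only. Between the groups, all 10 proximal tubule markers and 7 of 8 podocyte markers had log2 fold changes below 0. So did all 5 markers of the thick ascending limb, all 4 of the distal convoluted tubule and all 10 of the collecting duct. All 8 tubular injury markers had values above 0. Of the 11 fibroblast and pericyte markers 6 were above 0, near the share of 54% over all genes tested. In the 2 control against the 3 Ksp-Cre mice, proximal tubule markers summed to 7983 to 8186 against 2284 to 3865 CPM. Podocyte markers summed to 666 to 858 against 531 to 557 CPM, and fibroblast and pericyte markers to 315 to 412 against 409 to 435 CPM. Tubular injury markers summed to 13521 to 14637 against 29178 to 36014 CPM. Most of the injury sum was Spp1, at 12277 and 13442 CPM in control and 27016, 28061 and 33774 CPM in Ksp-Cre mice. For 7 of the 8 injury markers the groups did not overlap, all higher, beside 20.3% of all genes. The other, Vcam1, was at 457 and 415 CPM in control mice 1 and 3. In Ksp-Cre mice 1, 2 and 3 Vcam1 was at 544, 804 and 366 CPM. All 5 red blood cell markers were above 0 and summed to 6.67 and 10.8 CPM in control mice 1 and 3 and 151, 150.3 and 40.5 CPM in Ksp-Cre mice 1, 2 and 3. Of 9 macrophage markers 7 were above 0, with sums of 973 and 1369 CPM against 1582, 1447 and 774 CPM. The part of these cell types in the collagen values was not tested.

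The classes differ in how long the repeat of glycine codons runs. In GENCODE M21 coding sequences (GRCm38), the longest unbroken run of codon triplets that begin with a glycine codon was 337 to 344 triplets in 9 of the 11 fibrillar genes, and 217 and 216 in the other two, Col27a1 and Col24a1. In the 6 type IV genes the longest run was 39 to 66 triplets and the helix was cut into 22 to 27 runs of at least 5 triplets. Among FACIT genes the longest run was 32 triplets in Col12a1, Col14a1 and Col20a1 and 113 in the 3 type IX genes and Col22a1. Coding exons other than the first and last also differed by class. Of those of fibrillar genes, 83.9% had a length that is a multiple of 9 bases and 48.6% were 54 bases long, against 47.2% and 4.23% in type IV genes and 55.1% and 26.3% in FACIT genes.

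The stretches below open the longest run of the 4 genes on which the results turn. Each holds 15 codons of the coding strand, 5′ to 3′, with the glycine codons in capitals. They lie at chr6:4512406-4515245 on the plus strand (exons 6 and 7, from codon 97), chr4:63244040-63245104 on the plus strand (exons 6 and 7, from codon 673), chr8:11247069-11267614 on the minus strand (exons 2 and 3, from codon 43) and chr9:79612934-79613769 on the minus strand (exons 56 and 57, from codon 2805) of GRCm38. Each spans an intron, so that the coordinates enclose more than the 45 bases shown.
Col1a2: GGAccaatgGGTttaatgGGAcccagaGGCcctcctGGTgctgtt
Col27a1: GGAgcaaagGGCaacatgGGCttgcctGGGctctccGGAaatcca
Col4a1: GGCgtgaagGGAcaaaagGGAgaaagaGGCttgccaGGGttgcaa
Col12a1: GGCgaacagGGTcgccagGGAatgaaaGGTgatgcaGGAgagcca

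**Figure D1:**
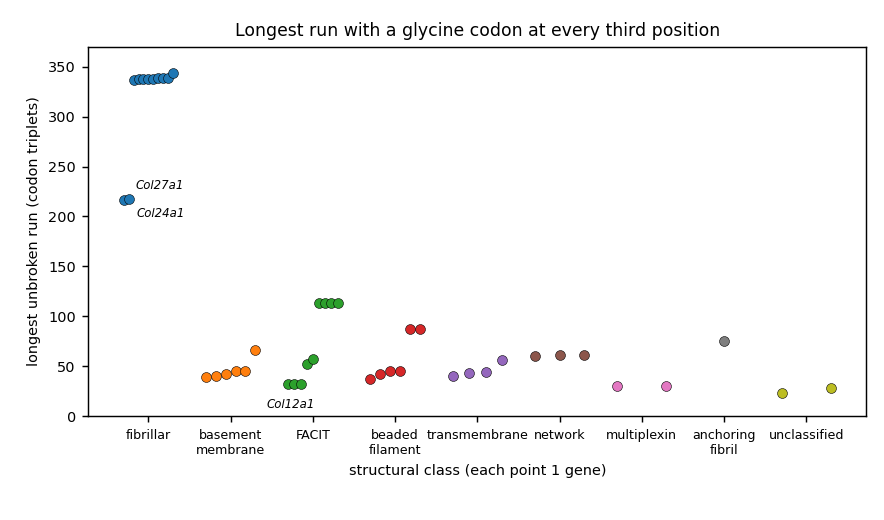
Longest unbroken run of codon triplets with a glycine codon in first place, on the vertical axis in triplets, for each of the 44 collagen genes as 1 point, grouped by structural class on the horizontal axis. Fibrillar genes sit at 216 to 344 triplets and all other genes at or below 113.

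In each library the collagens together took between 0.273% and 0.398% of all counts. Summed over the 44 genes and corrected for gene length, their level was 381 and 416 CPM per kb of merged exons in control mice 1 and 3. It was 545, 538 and 419 CPM per kb in Ksp-Cre mice 1, 2 and 3. Mice 1 and 2 therefore lay well above both control mice, whereas mouse 3 was close to control mouse 3. The group means were 398 ± 24.9 CPM per kb (SD, n = 2) and 501 ± 70.8 CPM per kb (SD, n = 3), a ratio of 1.26 that was 1.36 for mice 1 and 2 and 1.05 for mouse 3.

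Basement membrane, fibrillar and multiplexin genes made up most of this sum in every library. Type IV collagens took 42.1% and 38.4% of it in control mice 1 and 3 and 32.9%, 34.3% and 41.7% in Ksp-Cre mice 1, 2 and 3. Fibrillar collagens took 30.3% and 35.0% in the first group and 39.1%, 38.2% and 30.7% in the second. The order of these classes was thus turned in Ksp-Cre mice 1 and 2, where fibrillar genes led, and in mouse 3 the shares were within the range of the control mice. Multiplexins took 15.3% to 18.4% and beaded filament genes 3.44% to 6.48%. FACIT genes took 3.13% to 3.70%, and the remaining classes less than 1% each.

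**Figure D2:**
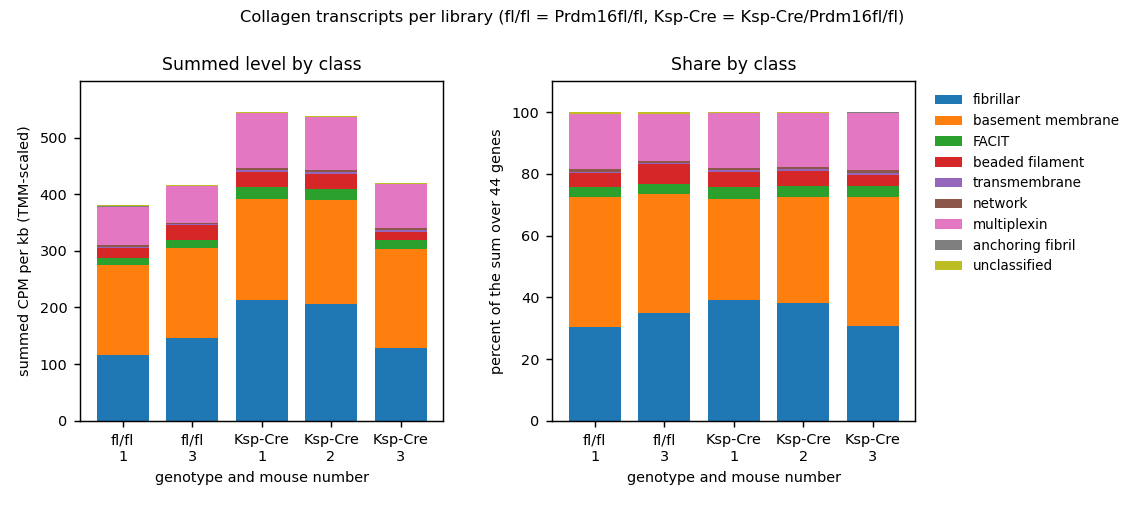
Summed collagen level in CPM per kb (left, TMM-scaled) and as a percent of the sum over 44 genes (right) for each library, with 1 bar per mouse and 1 color per structural class. Fibrillar genes reach 213 and 206 CPM per kb in mice 1 and 2 with Ksp-Cre, and 116, 146 and 129 in Prdm16fl/fl mouse 1, Prdm16fl/fl mouse 3 and Ksp-Cre/Prdm16fl/fl mouse 3.

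By TPM, the deposited level per length and library total, Col18a1 and Col4a1 ranked first and second in both groups, at group means of 121 ± 18.4 and 109 ± 5.33 TPM (SD, n = 2) in control kidneys and 190 ± 18.1 and 188 ± 30.02 TPM (SD, n = 3) in Ksp-Cre kidneys. In neither group did they differ beyond the spread, and Col4a1 was above Col18a1 in Ksp-Cre mice 1 and 2. Col27a1 was the 3rd most abundant collagen transcript of control kidneys, at 79.2 ± 6.02 TPM (SD, n = 2), and the 12th of Ksp-Cre kidneys, at 25.4 ± 14.0 TPM (SD, n = 3). Col3a1 and Col1a2 took the opposite course, from ranks 6 and 7 to ranks 3 and 4. In control kidneys the neighbours Col27a1, Col4a3 and Col4a2, at 79.2, 75.5 and 75.5 TPM, did not differ beyond the spread of their libraries. TPM also differs in scale between the groups. Relative to TMM-scaled levels, with the control mean at 1, it stood at 1.23, 1.22 and 1.09 in Ksp-Cre mice 1, 2 and 3. In TMM-scaled CPM the group means of Col18a1 and Col4a1 differed 1.33-fold and 1.45-fold.

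The question behind the comparison of the genotypes was how loss of Prdm16 in tubules alters the injured kidney. With edgeR's quasi-likelihood test, 1 of the 35 collagen genes, Col12a1, passed a Benjamini-Hochberg adjusted p of 0.05, and it was higher in Ksp-Cre kidneys. Among all 16394 genes 0.976% passed, 0.104% as higher and 0.872% as lower, and 0.708%, Col12a1 among them, also differed by 1 or more on the log2 scale. At an unadjusted p under 0.05 there were 10 higher and 6 lower collagen genes of 35, against 18.8% of all genes, 7.64% as higher and 11.2% as lower. The log2 fold change was above 0 for 21 collagen genes and below 0 for 14, against 54% of all genes above 0, and the median was 0.28 beside 0.04 for all genes. For 20 of the 35 collagen genes the 2 groups did not overlap, 13 higher and 7 lower, against 41.6% of all genes, 20.3% as higher and 21.3% as lower. Col11a1 and Col8a2 are among the 13 and had few counts in control mice. Neither was tested when every library needed at least 10 counts.

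Single mice decided these numbers of genes. In Ksp-Cre mouse 3, 24 of the 35 genes (68.6%) lay below both other mice of its group, beside 43.7% of all genes tested. Relative to the control mean, the median collagen gene was higher by 0.46 and 0.38 on the log2 scale in mice 1 and 2, whereas its value was -0.14 in mouse 3. Without mouse 3, 13 higher and 5 lower collagen genes passed the adjusted threshold in edgeR's quasi-likelihood test, against 18.9% of all genes, 7.82% as higher and 11% as lower. In the same 4 libraries 21 higher and 7 lower collagen genes had groups that did not overlap, against 63.3% of all genes, 32.6% as higher and 30.7% as lower. Without Ksp-Cre mouse 1 or 2, 0 collagen genes passed in edgeR's test, and so did 0 of all genes. At an unadjusted p under 0.05 there were 11 collagen genes in each of these fits, beside 2514 and 2298 of all genes. Fits without a control mouse leave a single mouse in that group and are not counted here. DESeq2 on all 5 libraries called 8 collagen genes and 7.2% of all genes, 1.87% as higher and 5.33% as lower. These were Col1a1, Col1a2, Col4a1, Col4a2, Col8a2 and Col12a1 as higher and Col27a1 and Col4a3 as lower.

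**Figure D3:**
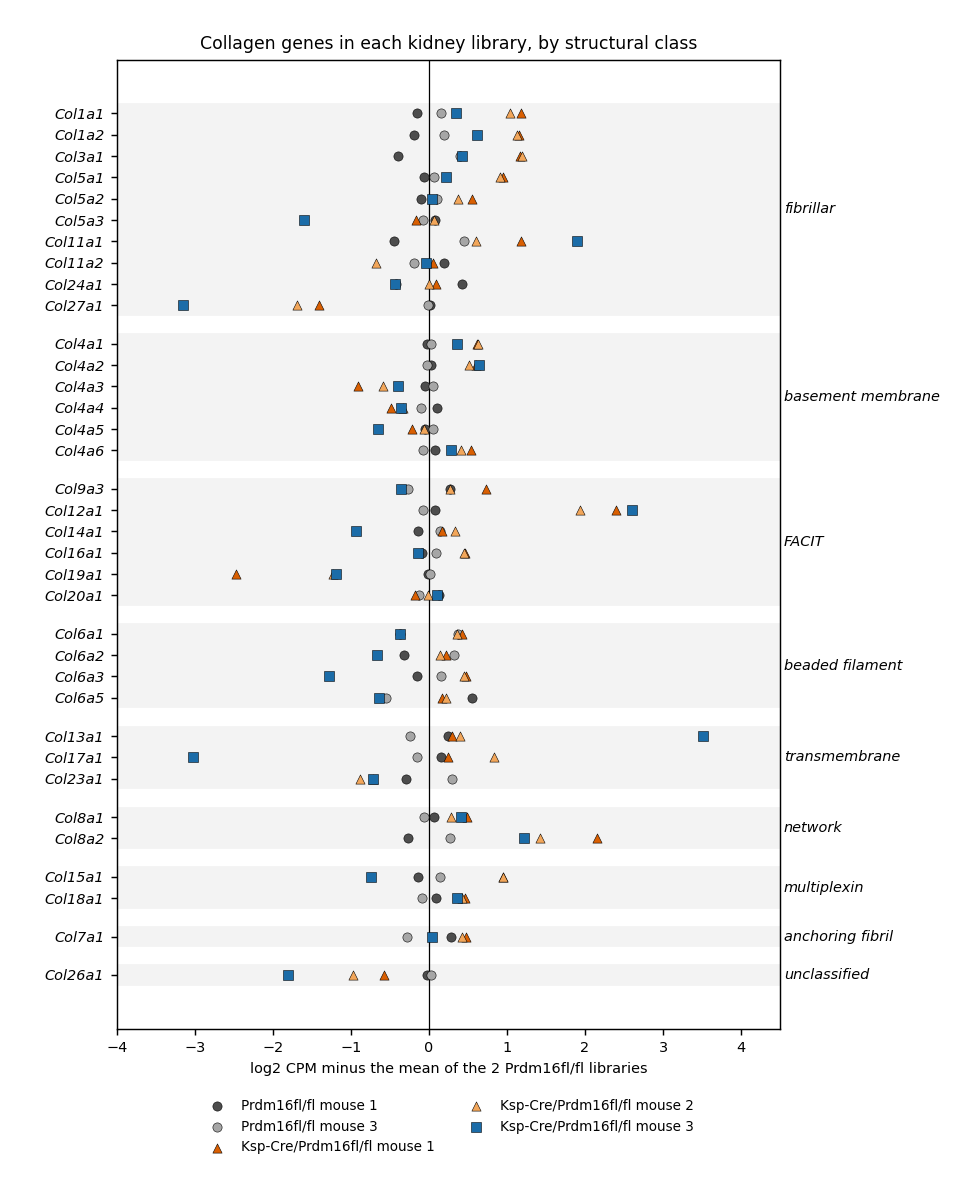
Level of the 35 tested collagen genes in each library as log2 CPM minus the mean of the 2 Prdm16fl/fl libraries, with 1 row per gene, 1 symbol per mouse and shading by structural class. Ksp-Cre/Prdm16fl/fl mouse 3 (squares) lies below mice 1 and 2 (triangles) for 24 genes, farthest for Col17a1, and far above them for Col13a1.

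Fibrillar genes had a median log2 fold change of 0.53 over 10 tested genes, of which 6 were above 0 and 4 below. Of these, 0 passed the adjusted threshold, with 5 at an unadjusted p under 0.05, beside 18.8% of all genes. The median was 0.33 with at least 10 counts required in every library, which left out Col11a1. Medians of the 10 genes relative to the control mean were 0.75, 0.49 and 0.13 in Ksp-Cre mice 1, 2 and 3. The genes of type I collagen, the main fiber of scars, and of type III collagen, which forms thinner fibers with it, had the highest levels of the class in Ksp-Cre kidneys.

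Col1a1 (chromosome 11, 94827050 to 94843868 in the coordinates of the files) encodes one of the type I chains and was at 108 and 134 CPM in control mice 1 and 3 and at 273, 247 and 153 CPM in Ksp-Cre mice 1, 2 and 3. Col1a2 (chromosome 6, 4505618 to 4541543), which encodes the partner chain, was at 136 and 177 CPM and at 345, 340 and 238 CPM in the same order of mice. Col3a1 (chromosome 1, 45350698 to 45388866) was at 133 and 231 CPM and at 394, 402 and 236 CPM. For these 3 genes every Ksp-Cre mouse lay above both control mice, but mouse 3 stood close to control mouse 3 for Col1a1 and Col3a1. Log2 fold changes were 0.89 ± 0.27 (standard error, adjusted p = 0.164) for Col1a1, 0.97 ± 0.22 (adjusted p = 0.0973) for Col1a2 and 0.92 ± 0.33 (adjusted p = 0.218) for Col3a1 in edgeR's quasi-likelihood test. Without mouse 3 they were 1.11, 1.13 and 1.13, with adjusted p-values of 0.00129, 0.00145 and 0.00967 in the same test. Without Ksp-Cre mouse 1 or 2 the adjusted p-values of these 3 genes were 0.214 to 0.401 in that test.

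Col5a1 (chromosome 2, 27776393 to 27929522), a type V chain that starts the assembly of type I fibers, showed the same order of mice at a lower level. It was at 21.2 and 23.4 CPM in control mice 1 and 3 and at 43.3, 42.1 and 25.9 CPM in Ksp-Cre mice 1, 2 and 3. Its log2 fold change was 0.73 ± 0.25 (edgeR adjusted p = 0.193), and 0.94 without mouse 3 (edgeR adjusted p = 0.00139). Col5a2, its partner chain, was at 38.2 and 44.1 CPM and at 60.0, 53.3 and 42.2 CPM, so that mouse 3 alone made the groups overlap. Without mouse 3 its log2 fold change was 0.47 (edgeR adjusted p = 0.0265). Col5a3, Col11a2 and Col24a1 had log2 fold changes of -0.41, -0.21 and -0.17 with unadjusted p-values of 0.415, 0.551 and 0.692 in edgeR's test. Col5a3 lay at 3.60 CPM in Ksp-Cre mouse 3 and at 9.93 to 11.7 CPM in the other 4 mice. Col11a1 rested on 2 and 5 counts in control mice 1 and 3 and 12, 7 and 18 counts in Ksp-Cre mice 1, 2 and 3. It passed the filter on low counts through the Ksp-Cre mice, where it was higher.

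Col27a1 (chromosome 4, 63132246 to 63253228), a fibrillar collagen with a shorter helix known best from cartilage, went the other way. It was at 313 and 309 CPM in control mice 1 and 3, the most by count of any fibrillar gene there. In Ksp-Cre mice 1, 2 and 3 it was at 117, 96.2 and 35.0 CPM, so that each mouse of the group lay far below both control mice. The means were 311 ± 2.22 CPM (SD, n = 2) and 82.7 ± 42.6 CPM (SD, n = 3), a log2 fold change of -1.91 ± 0.46 (edgeR adjusted p = 0.109, unadjusted p = 0.00557). Without mouse 3 it was -1.54 with an edgeR adjusted p of 0.000355. Without Ksp-Cre mouse 1 or 2 the edgeR adjusted p of Col27a1 was 0.154 and 0.235. Its share of the fibrillar TPM was 31.5% and 24.7% in control mice 1 and 3 and 6.39%, 5.44% and 3.17% in Ksp-Cre mice 1, 2 and 3. Proximal tubule markers were lower in the same libraries, with the lowest sum in mouse 3 as well. The same held for the thick ascending limb, at 2928 and 3918 against 2711, 2415 and 1294 CPM. It held too for the distal convoluted tubule, at 1897 and 1172 against 1098, 710 and 327 CPM. Collecting duct markers were lower as well, at 735 and 596 against 560, 347 and 434 CPM, but lowest in mouse 2. The part of these cells in the Col27a1 values was not tested.

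Promoter windows from RefSeq (GRCm38.p6, 250 bases before the start) were matched for 35 of the 44 genes, with 38 windows in all. Col12a1, Col14a1, Col1a1, Col22a1, Col26a1, Col2a1, Col4a3, Col5a2 and Col9a3 were not analysed here. The GC box, GGGCGG on either strand, was in 57.9% of collagen windows and in 32.7% of all 32851 windows of the same length. The TATA box, searched as TATAAA on either strand, was in 13.2% and 12.4%. The CCAAT box, searched on either strand, was in 34.2% and 33.9%, and a base could belong to more than one of these motifs. Printed here are the windows of the fibrillar genes Col27a1, lower in all 3 Ksp-Cre mice, and Col3a1, higher in all 3, at chr4:63215162-63215411 and chr1:45311288-45311537 on the plus strand. Capitals mark the motifs found, 1 GC box in Col27a1 and 1 TATAAA in Col3a1, which describe the letters only.
Col27a1: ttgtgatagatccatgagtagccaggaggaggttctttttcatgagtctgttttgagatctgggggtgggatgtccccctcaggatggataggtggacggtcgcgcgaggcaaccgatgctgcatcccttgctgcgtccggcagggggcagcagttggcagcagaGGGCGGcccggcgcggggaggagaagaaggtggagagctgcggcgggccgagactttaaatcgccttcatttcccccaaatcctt
Col3a1: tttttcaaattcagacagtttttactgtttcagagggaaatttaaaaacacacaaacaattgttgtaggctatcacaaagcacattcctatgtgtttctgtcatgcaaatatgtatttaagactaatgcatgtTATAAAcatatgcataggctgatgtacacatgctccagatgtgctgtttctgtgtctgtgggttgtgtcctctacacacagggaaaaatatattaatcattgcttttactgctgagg

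The 6 basement membrane genes split evenly, and in all 6 the groups did not overlap, beside 41.6% of all genes. Col4a1, Col4a2 and Col4a6 were higher and Col4a3, Col4a4 and Col4a5 lower in the 3 Ksp-Cre mice, so that the class median of 0.06 describes neither set. None passed the adjusted threshold with all 5 libraries, and 4 had an unadjusted p under 0.05, beside 18.8% of all genes. Col4a1 and Col4a2, the chains of 1 known trimer, shared a direction, as did Col4a3, Col4a4 and Col4a5, the chains of another. Col4a5 and Col4a6 differed in direction. The fall of Col4a5 was small, at -0.29 (unadjusted p = 0.164 in edgeR's test) and -0.14 without mouse 3.

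Col4a1 (chromosome 8, 11248423 to 11362889), a chain of the ubiquitous type IV trimer, was at 405 and 417 CPM in control mice 1 and 3 and at 629, 633 and 529 CPM in Ksp-Cre mice 1, 2 and 3. Col4a2 (chromosome 8, 11362805 to 11499287), the other chain of that trimer, was at 227 and 217 CPM and at 338, 318 and 346 CPM. Unlike Col1a1, Col1a2, Col3a1 and Col5a1, Col4a2 was as high in mouse 3 as in mice 1 and 2. Log2 fold changes were 0.54 ± 0.15 (edgeR adjusted p = 0.134) and 0.59 ± 0.12 (edgeR adjusted p = 0.0786), and without mouse 3 they were 0.62 and 0.57 with edgeR adjusted p-values of 0.00562 and 0.0077. The genes start 84 bases apart on opposite strands, and the TPM ratio of Col4a1 to Col4a2 was between 1.20 and 1.56 in the 5 libraries.

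Col4a3 (chromosome 1, 82564642 to 82699780), a chain of the mature glomerular basement membrane, was at 298 and 322 CPM in control mice 1 and 3 and at 165, 206 and 236 CPM in Ksp-Cre mice 1, 2 and 3. Col4a4 (chromosome 1, 82426140 to 82564570), its neighbour 72 bases away on the opposite strand, was at 307 and 267 CPM and at 204, 227 and 223 CPM. Here mouse 3 was not the lowest of its group, and both genes were lowest in mouse 1. Log2 fold changes were -0.62 ± 0.18 (edgeR adjusted p = 0.146) and -0.40 ± 0.13 (edgeR adjusted p = 0.188), and without mouse 3 they were -0.74 and -0.41 with edgeR adjusted p-values of 0.00581 and 0.0419. Nphs1, which encodes the podocyte slit protein nephrin, was at 50.01 to 53.9 CPM in control and 28.3 to 29.5 CPM in Ksp-Cre mice, and the part of podocytes, which make these chains, in the values of Col4a3 and Col4a4 was not tested.

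The X-linked pair Col4a5 and Col4a6, whose starts lie 1276 bases apart on opposite strands, had log2 fold changes of -0.29 and 0.42 with edgeR adjusted p-values of 0.445 and 0.294. Col4a5 was at 80.9 and 86.1 CPM in control mice 1 and 3 and at 71.6, 79.7 and 52.8 CPM in Ksp-Cre mice 1, 2 and 3. Col4a6 was the least abundant type IV gene at 7.82 to 12.0 CPM. The TPM ratio of Col4a1 to Col4a3 summarizes the split. It was 1.48 and 1.41 in control mice 1 and 3 and 4.16, 3.35 and 2.45 in Ksp-Cre mice 1, 2 and 3, without overlap.

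**Figure D4:**
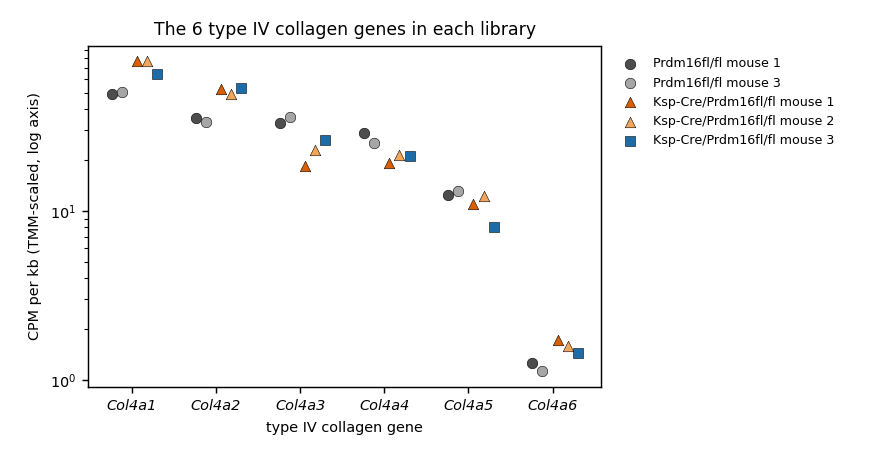
Level of the 6 type IV collagen genes in CPM per kb (TMM-scaled, log axis) with 1 symbol per library. Symbols of the 3 Ksp-Cre/Prdm16fl/fl mice lie above both circles of the Prdm16fl/fl mice for Col4a1, Col4a2 and Col4a6 and below them for Col4a3, Col4a4 and Col4a5.

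Of the FACIT genes, Col12a1 rose, and it was the 1 collagen gene to pass the adjusted threshold. Col12a1 (chromosome 9, 79506269 to 79628423) encodes a long collagen that lies on the surface of type I fibers. It was at 16.4 and 14.8 CPM in control mice 1 and 3, from 244 and 206 counts, and at 83.0, 60.3 and 95.5 CPM in Ksp-Cre mice 1, 2 and 3, from 1463, 1020 and 1433 counts. All 3 Ksp-Cre mice were far above both others, and mouse 3 was the highest. The means were 15.6 ± 1.18 CPM (SD, n = 2) and 79.6 ± 17.9 CPM (SD, n = 3), a log2 fold change of 2.35 ± 0.23 (5.09-fold) with an adjusted p of 0.0337 in edgeR's quasi-likelihood test. Removing any 1 mouse left the log2 fold change at 2.20 to 2.52. Without Ksp-Cre mouse 1 or 2 the edgeR adjusted p of Col12a1 was 0.105 and 0.136, in fits where 0 of all genes passed. Without mouse 3 it was 0.000305. With the trend of each library with gene length removed, it was 0.0502.

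Col14a1, a FACIT gene whose longest run of glycine codons is as long as that of Col12a1, had overlapping groups. It was at 29.3 and 35.7 CPM in control mice 1 and 3 and at 36.2, 40.6 and 16.9 CPM in Ksp-Cre mice 1, 2 and 3, with a log2 fold change of -0.05 (edgeR adjusted p = 0.95) that was 0.08 under scaling by library size. The TPM ratio of Col12a1 to Col14a1 was accordingly 0.283 and 0.209 in control mice 1 and 3, and 1.15, 0.747 and 2.85 in Ksp-Cre mice 1, 2 and 3. Col16a1 was at 28.2 and 31.9 CPM in control mice 1 and 3 and at 41.3, 40.8 and 27.1 CPM in Ksp-Cre mice 1, 2 and 3, a log2 fold change of 0.28 (edgeR adjusted p = 0.519). Without mouse 3 the groups did not overlap and it was 0.46 (edgeR adjusted p = 0.0233). Col19a1, a rare FACIT collagen, had groups that did not overlap, at 1.82 and 1.87 CPM in control mice 1 and 3 and 0.227, 0.709 and 0.733 CPM in Ksp-Cre mice 1, 2 and 3. These were 27 and 26 counts against 4, 12 and 11, and the log2 fold change was -1.73 ± 0.50 (edgeR adjusted p = 0.152), and -1.97 without mouse 3 (edgeR adjusted p = 0.0227). Col9a3 and Col20a1 had overlapping groups and log2 fold changes of 0.28 and -0.03.

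The beaded filament genes encode type VI collagen, which forms a mesh around cells. None of the 4 tested genes passed any threshold, and in all 4 mouse 3 was the lowest Ksp-Cre mouse. Col6a1 was at 37.3 and 62.9 CPM in control mice 1 and 3 and at 65.2, 62.4 and 37.4 CPM in Ksp-Cre mice 1, 2 and 3. Col6a2 was at 25.4 and 39.9 CPM and at 37.0, 35.1 and 19.99 CPM. Col6a3 was at 37.7 and 46.9 CPM and at 58.3, 57.6 and 17.3 CPM. For these 3 genes the control mice differed from each other by more than the group means did. Log2 fold changes were 0.14 ± 0.31, -0.09 ± 0.32 and 0.07 ± 0.50 (edgeR adjusted p-values of 0.847, 0.905 and 0.951), that of Col6a2 being 0.05 under scaling by library size. Without mouse 3, Col6a3 passed at 0.46 (edgeR adjusted p = 0.031). Col6a5 rested on 6 to 16 counts per library.

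The transmembrane genes held the widest gaps between mouse 3 and its group. Col13a1, a collagen of cell contacts and the neuromuscular junction, was at 1.96 and 1.36 CPM in control mice 1 and 3, at 2.04 and 2.19 CPM in Ksp-Cre mice 1 and 2 and at 19.9 CPM in mouse 3. The count behind the last value was 299, against 19 to 37 in the other libraries. Col17a1, which anchors basal epithelial cells to their basement membrane, was at 7.08 and 5.67 CPM, at 7.49 and 11.4 CPM and, in mouse 3, at 0.666 CPM. In mouse 3, Col13a1 was thus 9.42-fold above the mean of mice 1 and 2, and Col17a1 was 14.2-fold below it. Their log2 fold changes over all libraries, 2.26 ± 1.17 and 0.04 ± 0.90, carried edgeR adjusted p-values of 0.355 and 0.985, and without mouse 3 they were 0.35 and 0.57. Col23a1 was at 2.02 and 3.09 CPM in control mice 1 and 3 and at 1.48, 1.30 and 1.47 CPM in Ksp-Cre mice 1, 2 and 3, a log2 fold change of -0.85 ± 0.32 (edgeR adjusted p = 0.235) without overlap. The 8 markers of the medulla and the urothelium summed to 70.3 to 119 CPM in 4 libraries and 208 CPM in mouse 3. Most of this was Krt20, which is also on the tubular injury list, at 61.2 to 108 CPM and, in mouse 3, 180 CPM. The list did not move in one direction. Upk1b, Upk2, Upk3a and Aqp4 were lower in all 3 Ksp-Cre mice than in both control mice. Upk2 and Upk3a stayed at or below 0.646 CPM and were too low to be tested. Krt20 and Slc14a2 were higher in all 3 Ksp-Cre mice, and Upk1a and Krt5 overlapped. Slc14a2 was at 0.27 and 4.16 CPM in control mice 1 and 3 and at 9.71, 7.27 and 23.9 CPM in Ksp-Cre mice 1, 2 and 3. The part of these cells in the values of mouse 3 was not tested.

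Both tested network genes were higher in all 3 Ksp-Cre mice. These genes encode type VIII collagen, which forms a lattice around vessels and in the cornea. Col8a1 was at 13.3 and 12.2 CPM in control mice 1 and 3 and at 18.0, 15.5 and 16.9 CPM in Ksp-Cre mice 1, 2 and 3. Col8a2 was at 0.607 and 0.933 CPM, from 9 and 13 counts, and at 3.80, 2.24 and 1.93 CPM, from 67, 38 and 29 counts. For Col8a1 mouse 3 lay between the other mice of its group. Log2 fold changes were 0.39 ± 0.16 (edgeR adjusted p = 0.25) and 1.79 ± 0.46 (edgeR adjusted p = 0.122), and Col8a2 passed without mouse 3 (edgeR adjusted p = 0.0128).

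The multiplexins are collagens of basement membrane zones whose ends release endostatin-like fragments. Col18a1 (chromosome 10, 76888013 to 77002391), one of the 2 most abundant collagen transcripts by TPM, was at 423 and 376 CPM in control mice 1 and 3 and at 548, 532 and 512 CPM in Ksp-Cre mice 1, 2 and 3. Its groups did not overlap and its log2 fold change was 0.41 ± 0.13 (edgeR adjusted p = 0.185), and 0.44 without mouse 3 (edgeR adjusted p = 0.0301). Col15a1 (chromosome 4, 47207744 to 47313165) was at 54.5 and 66.2 CPM and at 116, 116 and 35.8 CPM, so that mice 1 and 2 had nearly equal values and mouse 3 lay below both control mice. Its log2 fold change of 0.57 ± 0.49 (edgeR adjusted p = 0.571) became 0.95 without mouse 3 (edgeR adjusted p = 0.0015). The TPM ratio of Col15a1 to Col18a1 was 0.166 and 0.227, then 0.274, 0.282 and 0.0901.

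Col7a1, the anchoring fibril collagen of the skin, was at 4.74 to 7.08 CPM in control and 5.93 to 8.06 CPM in Ksp-Cre mice, a log2 fold change of 0.30 ± 0.27 (edgeR adjusted p = 0.597). Col26a1, for which no class was assigned, was at 7.89 and 8.11 CPM in control mice 1 and 3 and at 5.34, 4.02 and 2.20 CPM in Ksp-Cre mice 1, 2 and 3. Its groups did not overlap, and its log2 fold change was -1.05 ± 0.37 (edgeR adjusted p = 0.213) and -0.77 without mouse 3 (edgeR adjusted p = 0.038).

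**Figure D5:**
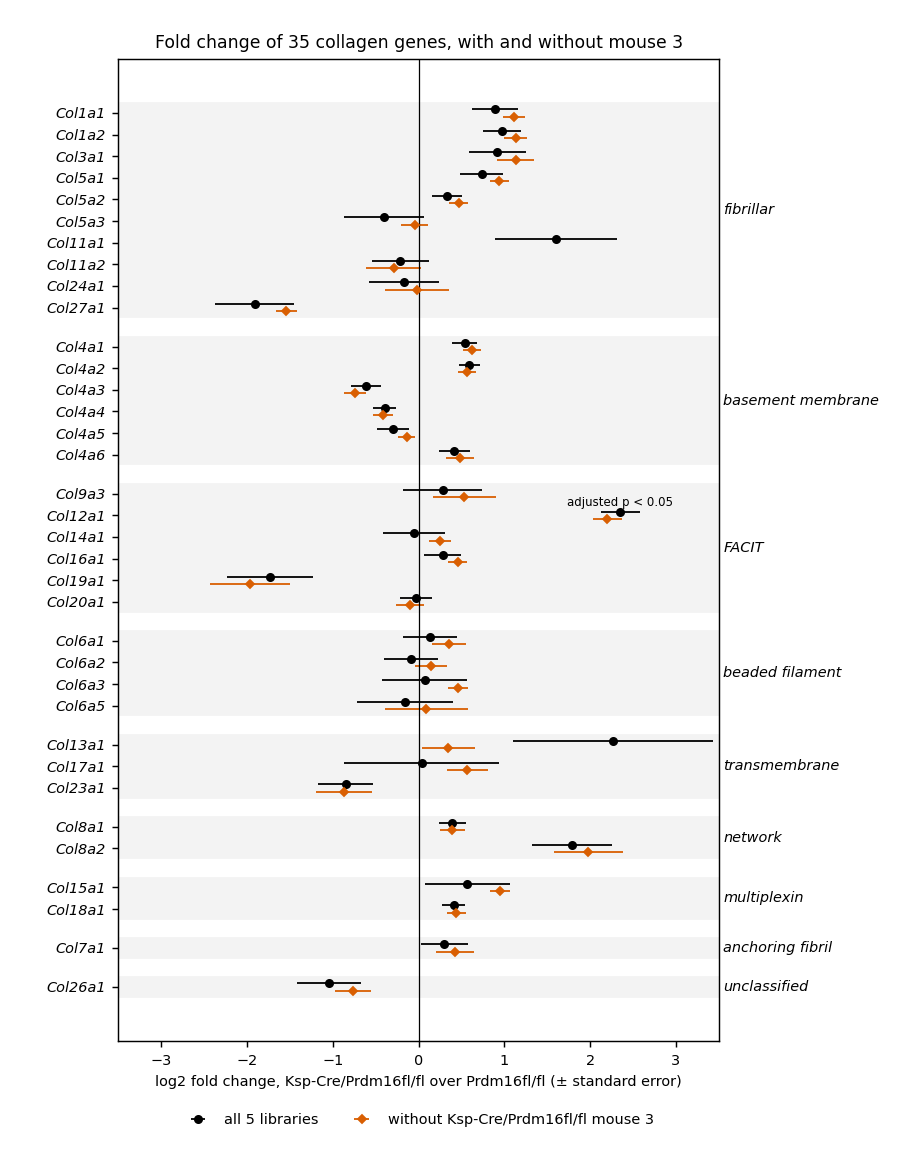
Log2 fold change of the 35 tested collagen genes between Ksp-Cre/Prdm16fl/fl and Prdm16fl/fl kidneys, with standard errors, for all 5 libraries (circles) and without Ksp-Cre/Prdm16fl/fl mouse 3 (diamonds), grouped by class. Col12a1 at 2.35 is the gene marked as past an adjusted p of 0.05 with all libraries, Col27a1 lies lowest at -1.91, and Col11a1 has no diamond because it was not tested without mouse 3.

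Another 9 collagen genes had too few counts to be tested. Col9a1, a chain of cartilage type IX collagen, had 0 counts in all 5 libraries, and the cartilage genes Col2a1 and Col9a2 had at most 3 counts in any library. Col22a1 had 0 to 4 counts, Col6a4 2 to 12, Col6a6 2 to 7 and Col28a1 2 to 13. Col25a1 had 17 counts in control mouse 1 and 1 to 6 in the others. Col10a1, the collagen of hypertrophic cartilage, had 17 counts in Ksp-Cre mouse 3 and 1 to 4 in the others.

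Genes that encode partner chains kept steady ratios in some cases and not in others. The TPM ratio of Col1a1 to Col1a2 was between 0.566 and 0.701 and that of Col6a1 to Col6a2 between 2.22 and 2.83 over the 5 libraries. The ratio of Col27a1 to Col1a2, which are not partners, was 1.39 and 1.06 in control mice 1 and 3 and 0.206, 0.172 and 0.0893 in Ksp-Cre mice 1, 2 and 3. The ratio of Col6a1 to Col6a3, which are partners, was 2.71 to 3.66 in 4 libraries and 5.93 in Ksp-Cre mouse 3. These ratios are a description over 5 libraries and were not tested.

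Collagen chains are hydroxylated and folded in the endoplasmic reticulum, trimmed outside the cell, cross-linked by lysyl oxidases and bound by integrins and discoidin receptors. Of 58 genes listed for these steps, 51 were tested, and 0 passed the adjusted threshold in edgeR's quasi-likelihood test, against 4 with DESeq2 and beside 0.976% and 7.2% of all genes. There were 9 higher and 1 lower genes at an unadjusted p under 0.05, beside 7.64% and 11.2% of all genes. The log2 fold change was above 0 for 36 genes and below 0 for 15, with a median of 0.14, beside 54% of all genes above 0 and a median of 0.04. Without mouse 3, 16 higher and 2 lower genes passed in edgeR's test, beside 7.82% and 11% of all genes.

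Among genes for trimming and cross-linking, 9 of 12 tested had a log2 fold change above 0. Lox, the lysyl oxidase that cross-links fibers, was at 9.37 and 13.9 CPM in control mice 1 and 3 and at 39.2, 31.8 and 99.5 CPM in Ksp-Cre mice 1, 2 and 3. As for Col12a1, mouse 3 was the highest of all libraries. The log2 fold change of Lox was 2.29 ± 0.56 (edgeR adjusted p = 0.113). Bmp1, the protease that removes the C-terminal propeptide, was at 34.4 and 36.4 CPM and at 55.3, 51.7 and 66.6 CPM, a log2 fold change of 0.71 ± 0.15 (edgeR adjusted p = 0.0782). Adamts2, which removes the N-terminal propeptide, had a log2 fold change of 0.84 ± 0.26 (edgeR adjusted p = 0.168), also without overlap of the groups. Pcolce, an enhancer of Bmp1, had the lowest at -0.61 (edgeR adjusted p = 0.302).

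Of 19 tested genes for folding and modification, 12 were above 0 and 7 below. The prolyl isomerase Fkbp10 and the prolyl hydroxylase complex genes P3h1 and P3h4 had log2 fold changes of 0.68 ± 0.19, 0.45 ± 0.14 and 0.71 ± 0.25 (edgeR adjusted p-values of 0.142, 0.163 and 0.21). Colgalt2, a collagen galactosyltransferase, had -0.87 ± 0.21 (edgeR adjusted p = 0.111). Serpinh1, which encodes the collagen chaperone HSP47, was at 222 and 256 CPM in control mice 1 and 3 and at 327, 293 and 119 CPM in Ksp-Cre mice 1, 2 and 3, again lowest in mouse 3. Serpinh1 was added for this pattern after its values were seen. Of 9 receptor and uptake genes tested, 7 were above 0, led by the integrin beta chain Itgb1 at 0.48 ± 0.13 (edgeR adjusted p = 0.13). Of 11 fibril regulators tested, 8 were above 0, among them Sparc at 0.44 ± 0.18 and Bgn, which encodes biglycan, at 0.55 ± 0.23 (edgeR adjusted p-values of 0.262 and 0.264). The other 3 were below 0, and Fmod at -1.06 ± 0.46 (edgeR adjusted p = 0.291) was the lowest of the 51 genes. Of these named genes, Lox, Bmp1, Adamts2, Fkbp10, P3h1, P3h4, Itgb1 and Sparc were higher in all 3 Ksp-Cre mice than in both others, and Pcolce, Colgalt2 and Fmod were lower. Over the 51 tested genes the groups did not overlap for 13 as higher and 7 as lower, beside 20.3% and 21.3% of all genes.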

How the data were processed

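RNA-seq counts of 5 mouse kidneys, 2 Prdm16fl/fl and 3 Ksp-Cre/Prdm16fl/fl, were grouped by the genotype in the sample labels. Raw counts of reads on each gene, made by the authors, were deposited without scaling. Beside them stood TPM, for which the authors divided by gene length and set each library to the same total. The submitters' processing notes name CASAVA, featureCounts 2.0.1, DESeq2 1.16.1 and the build hg38, a human assembly. The aligner and the mouse build are not given in the sources used here, and whether counting used strand is not stated, so overlapping genes are uncertain. Gene coordinates are those of the files and differ from GRCm38. The lines of 5 genes, broken in the files, were rejoined.

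Counts were filtered with filterByExpr, TMM-scaled and fitted with the quasi-likelihood test of edgeR 4.0.16 (R 4.3.3) on all 16394 genes, with genotype as the single term. P-values were adjusted by the Benjamini-Hochberg method across these genes, and a call is an adjusted p under 0.05. Standard errors are the log2 fold change divided by the root of F. CPM per kb is TMM-scaled CPM divided by the gene length of the files. The steps were tested on simulated data. Each library is 1 animal, so p-values rest on the spread between mice. No fold change is given for a gene with at most 3 counts in every library.

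Other settings tried were the DESeq2 Wald test (version 1.42.0), keeping each gene with at least 1 count, keeping those with 10 or more counts in each library, scaling to library size, scaling to the upper quartile, the mouse number as a block, removal of each library's loess trend with gene length (span 0.3), a further threshold of 1 on the log2 scale, and leaving out each mouse. The count of groups without overlap was also made without Ksp-Cre/Prdm16fl/fl mouse 3, which was added after seeing the data. Full statistics are given for collagen genes at an unadjusted p under 0.05 and for the 2 of each class with the highest mean TPM, and for at most 3 genes per pathway list and direction. The genes and lists were chosen with earlier results of these data known. Figures were drawn with matplotlib 3.10.9.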

Additional observations from a re-analysis of the deposited data

How the results depend on the processing

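The count of called collagen genes, 1 with all libraries and TMM scaling, was 8 with DESeq2, 0 with the length trend removed and 0 to 18 with 1 mouse left out, 18 being without Ksp-Cre/Prdm16fl/fl mouse 3. It was 1 under the other filters and scalings and with a log2 fold change of at least 1 required. The count over all genes, 160, was 1166 with DESeq2, 471 without the filter, 51 with scaling by library size, 27 with the length trend removed and 0 to 3053 with 1 mouse left out. Pathway genes called, 0, were 4 with DESeq2 and 0 to 18 with 1 mouse left out. Mouse numbers 1 and 3 occur in both groups, and with the mouse number as a replicate block 0 collagen genes and 0 genes in all were called, with 9 collagen and 2061 genes at an unadjusted p under 0.05 in edgeR's test. The same-numbered mice shared no deviation (correlations of 0.00102 and -0.022), so this pairing is not taken as a design. Col12a1 had an edgeR adjusted p of 0.149 with this block, and over all its alternatives from 5.07e-16 with DESeq2 to 0.496.

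With scaling by library size the median of all genes went from 0.04 to 0.15 on the log2 scale and the collagen median from 0.28 to 0.40. The collagen median ran from 0.02 without Ksp-Cre/Prdm16fl/fl mouse 1 to 0.41 without mouse 3. The fibrillar median ran from 0.22 to 0.62 with 1 mouse left out, lowest without Ksp-Cre/Prdm16fl/fl mouse 1. The transmembrane median, 0.04, ran from -0.63 to 0.35 and was -0.76 with the replicate block. With at least 10 counts required in every library, the network median was 0.39 without Col8a2 and the fibrillar median was 0.33 without Col11a1. Single genes near 0 changed sign. Col14a1 was at 0.079 with scaling by library size and ran from -0.29 to 0.25 with 1 mouse left out (0.09 without Prdm16fl/fl mouse 3). Col6a2 was at 0.045 with that scaling and ran from -0.38 to 0.27 (0.15 without Ksp-Cre/Prdm16fl/fl mouse 3). Col6a1 ran from -0.19 to 0.56, and was -0.0018 without Ksp-Cre/Prdm16fl/fl mouse 1. Col17a1 was at -1.24 with the block and -0.023 with the length trend removed and ran from -0.63 to 0.57, with -0.11 without Prdm16fl/fl mouse 3 and -0.07 without Ksp-Cre/Prdm16fl/fl mouse 1. The cause was not tested. Of the 24 collagen genes with full statistics, the other 20 kept their sign under these alternatives. With 2 and 3 mice, genes with under 30 counts in some libraries, such as Col11a1, Col19a1 and Col8a2, are limited by depth.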
